A study of Mus musculus with 18 samples.

Results

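The 9 genes described here are myeloid chemokine genes (Cxcl2, Cxcl10, Ccl2, Ccl3, Ccl4, Ccl6, Ccl7 and Ccl9) and the interleukin gene Il1b, chosen by name and read in mouse bone marrow cells of 3 Fabp4 genotypes. The groups were homozygous knockout (KO), heterozygous knockout (HET) and wild type (WT) cells for Fabp4, the gene of a fatty acid binding protein of adipocytes and macrophages. RNA was sequenced in bulk in 2 sets, each with 3 samples of each genotype in the labels. The labels say that the cells of the set called in vitro here were sorted from vitro bone marrow and those of the sorted marrow set from bone marrow. The title asks about leukemia stem cells and hematopoietic stem cells, but the labels name no leukemia, culture, surface marker, age or mouse strain for these groups. In vitro, 3 KO, 3 HET and 3 WT libraries were used. In sorted marrow, 3 KO, 2 HET (replicates 1 and 3) and 3 WT libraries were used. All 9 genes were found among the 22017 genes of the in vitro table and among the 13195 genes of the sorted marrow table. Values are FPKM, the fragments of a gene scaled to the length of its transcript and to the mapped fragments of its library. The design text counts 3 mice of each genotype for each set, but no sample label ties a library to its mouse, so whether both sets used the same mice is not known.

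The 2 sets differed in quality. The in vitro libraries held 16779 to 18029 genes above 0, correlated at Spearman coefficients of 0.962 to 0.970 over 36 pairs, and had an estimated depth of 30.7 to 36.7 M mapped fragments. The sorted marrow libraries held 6560 to 8519 genes above 0 in KO cells, 3633 and 5209 in HET cells and 8194 to 8526 in WT cells, and correlated at only 0.427 to 0.621 over 28 pairs. Their estimated depth was 11.6 to 44.1 M mapped fragments in the 5 of 8 libraries where it could be resolved. Fabp4 was listed at 0 in every in vitro KO library, at 0, 0.0676 and 0 FPKM in HET cells and at 0, 0.0326 and 0.33 FPKM in WT cells, which is too low to check the genotype labels. It was not among the genes listed for sorted marrow, so the genotype labels could not be checked there with Fabp4. The general leukocyte marker Ptprc was present in every library, at 39.0 to 60.2 FPKM in vitro and 47.9 to 88.4 FPKM in sorted marrow. The progenitor receptor Kit was at 18.7 to 31.7 FPKM in vitro, but at 0 to 19.4 FPKM in sorted marrow, where it was listed at 0 in both HET libraries. Kit was also near 0 in KO 1 (0.0472 FPKM) and WT 2 (0.00747 FPKM) of sorted marrow, and low in KO 3 (1.595 FPKM) and WT 1 (1.897 FPKM).

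Chemokines are small secreted proteins that steer leukocytes through receptors on their surface. Ccl2 and Ccl7 act through Ccr2 and draw monocytes out of bone marrow, Ccl3, Ccl6 and Ccl9 act through Ccr1, Cxcl2 draws neutrophils through Cxcr2, and Cxcl10 is an interferon-induced ligand of Cxcr3. Il1b encodes interleukin-1 beta, which is made as an inactive precursor and cut by the inflammasome. Transcription of Il1b, Cxcl2 and Ccl2 in myeloid cells is known to be induced through NF-kappaB.

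In the GENCODE annotation of GRCm38 (mm10), 6 of the genes lie on chromosome 11 and form 2 groups. Ccl2 (82035571 to 82037453) and Ccl7 (82045712 to 82047525) are on the plus strand, 8258 bases apart. Ccl9 (83572919 to 83578636) and Ccl6 (83587882 to 83593087) are on the minus strand, 9245 bases apart, and are followed by Ccl3 (83647844 to 83649355, minus strand) and Ccl4 (83662584 to 83664683, plus strand). Cxcl2 (90903871 to 90905938, plus strand) and Cxcl10 (92346638 to 92348889, minus strand) are on chromosome 5, and Il1b (129364570 to 129371139, minus strand) is on chromosome 2. The strand setting of the counting is not given in the sources used here. Il1b shares its locus with the opposite-strand gene Il1bos, which had 6.79 to 10.6 FPKM in KO cells, 6.30 to 10.2 in HET cells and 8.60 to 10.1 in WT cells in vitro, above Il1b itself. The RefSeq span of Ccl4 (83648624 to 83664683) runs across Ccl3 on the other strand. GENCODE also places Gm17268 opposite Ccl2, E230016K23Rik opposite Ccl6 and Art3 opposite Cxcl10. E230016K23Rik (0.116 to 0.45 FPKM) and Art3 (0.0692 to 0.351 FPKM) were low in all 9 in vitro libraries. Reads of these overlapping pairs cannot be told apart without the strand, so values of Il1b, Ccl2, Ccl3, Ccl4, Ccl6 and Cxcl10 are uncertain to that extent. Cxcl2 shared 5.84% of its windows of 50 bases with Cxcl3, a near copy, so reads in those stretches could be assigned to either gene.

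The promoters of Cxcl2, Cxcl10 and Il1b are shown because they differ in the motifs of the NF-kappaB and interferon pathways through which these genes are known to be induced. Each runs from 250 bases before to 50 bases after the RefSeq start in GRCm38.p6, 5′ to 3′ on the gene's own strand, at chr5:90903649-90903948 (plus strand) for Cxcl2, chr5:92348840-92349139 (minus strand) for Cxcl10 and chr2:129371090-129371389 (minus strand) for Il1b. Capitals mark matches to a kappaB motif (GGG, any 3 bases, TTCC), an interferon response motif (GAAA, any 2 bases, GAAA) or an AP-1 motif (TGANTCA), each searched on both strands.
Cxcl2: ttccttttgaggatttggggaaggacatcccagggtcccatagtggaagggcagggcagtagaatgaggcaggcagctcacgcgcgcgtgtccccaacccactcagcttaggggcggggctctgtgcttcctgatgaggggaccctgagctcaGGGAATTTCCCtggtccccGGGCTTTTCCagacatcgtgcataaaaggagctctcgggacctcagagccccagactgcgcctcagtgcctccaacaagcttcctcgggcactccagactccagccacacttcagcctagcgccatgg
Cxcl10: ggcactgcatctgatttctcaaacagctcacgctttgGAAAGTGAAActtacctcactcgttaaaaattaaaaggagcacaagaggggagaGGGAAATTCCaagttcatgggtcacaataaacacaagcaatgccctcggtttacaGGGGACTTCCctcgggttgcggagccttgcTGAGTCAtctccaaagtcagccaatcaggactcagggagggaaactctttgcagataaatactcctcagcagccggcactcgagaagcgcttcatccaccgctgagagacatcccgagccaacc
Il1b: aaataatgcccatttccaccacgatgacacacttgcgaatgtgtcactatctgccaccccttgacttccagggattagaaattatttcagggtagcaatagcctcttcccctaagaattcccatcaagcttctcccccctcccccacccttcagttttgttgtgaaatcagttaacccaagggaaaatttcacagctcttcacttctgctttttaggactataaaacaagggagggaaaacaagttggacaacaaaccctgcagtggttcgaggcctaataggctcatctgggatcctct

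A promoter was on hand for 6 of the 9 genes (Cxcl2, Cxcl10, Ccl3, Ccl6, Ccl9 and Il1b). Cxcl2 held kappaB matches at -97 (GGGAATTTCC, with an overlapping match on the other strand from -96) and at -78 (GGGCTTTTCC), counted from the start. Cxcl10 held kappaB matches at -159 and -104, an interferon response match at -213 and an AP-1 match at -74. Ccl9 held a kappaB match on the minus strand from -35 and an AP-1 match at -53, and none of the 3 motifs was found in the windows of Ccl3, Ccl6 and Il1b. Of 32851 RefSeq promoters of the same length, 5.56% held the kappaB motif, 3.44% the interferon response motif and 7.81% the AP-1 motif. The TATA box motif (TATAAA, on the transcribed strand only) was found in Il1b from -31 and in Ccl9 from -92, and in 8.32% of all promoters. A match of letters is not a measured binding site, and none of the 6 windows held the C/EBP motif (TTGCNNAA, both strands), which 10.8% of all promoters held.

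In vitro, 4 of the genes were abundant and 5 were low in every genotype. In KO cells the order of mean levels was Ccl6 (245 ± 63.7 FPKM), Ccl9 (232 ± 18.3), Ccl3 (150.1 ± 10.9), Cxcl2 (106 ± 34.8), Ccl4 (8.26 ± 2.0), Ccl2 (2.82 ± 0.827), Il1b (2.39 ± 0.264), Cxcl10 (1.02 ± 0.694) and Ccl7 (0.212 ± 0.0528; SD, n = 3 throughout). Neighbours in this order whose libraries overlapped were Ccl6 and Ccl9, Ccl3 and Cxcl2, Ccl2 and Il1b, and Cxcl10 and Ccl7. In HET cells the top 4 genes kept this order and none of them overlapped its neighbour, at 280.3 ± 22.6, 205 ± 14.0, 121 ± 18.7 and 73.6 ± 21 FPKM, and Ccl2 (5.89 ± 1.67 FPKM) stood beside Ccl4 (5.67 ± 0.729 FPKM), which it overlapped. In WT cells the same 4 genes led at 237 ± 136, 184 ± 51.3, 137 ± 53.3 and 42.2 ± 8.92 FPKM, and Ccl2 (1.46 ± 0.375 FPKM) stood below Il1b (1.79 ± 0.705 FPKM), with overlap. Overlap in WT cells also joined Ccl6 with Ccl9 and Ccl9 with Ccl3. The 9 genes summed to 700.4 to 840.9 FPKM in KO libraries, 617.8 to 758 in HET libraries and 375.4 to 841.5 in WT libraries.

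**Figure D1:**
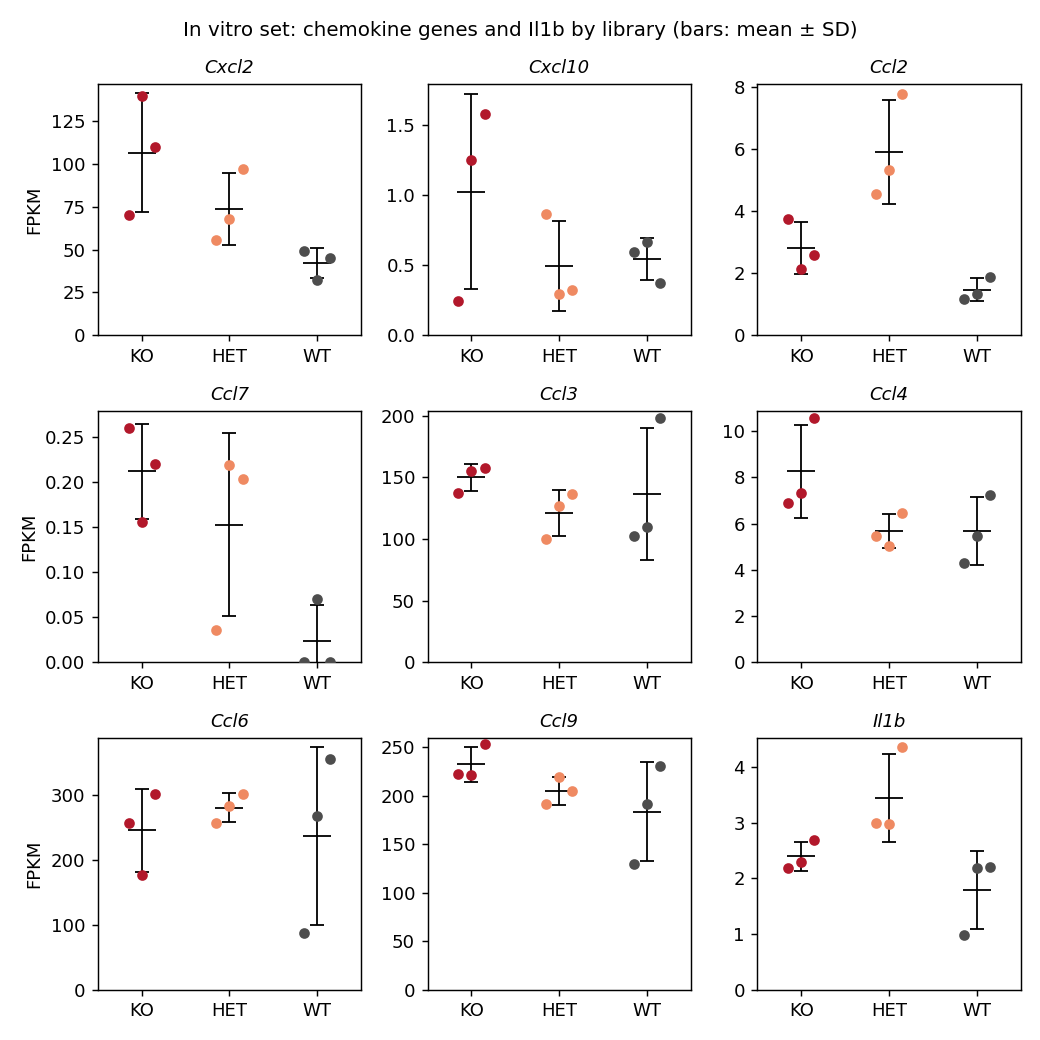
FPKM (linear axes) of the 9 genes in the in vitro set, with KO, HET and WT from left to right, 1 point per library and bars for mean ± SD (n = 3). The KO points of Cxcl2 (70.1 to 139 FPKM) and the HET points of Ccl2 (4.56 to 7.77 FPKM) lie above all WT points.

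Cxcl2, the neutrophil attractant, rose in KO cells in vitro. It was at 70.1, 139 and 109.9 FPKM in KO libraries, at 55.9, 68.1 and 96.8 FPKM in HET libraries and at 49.3, 32.1 and 45.1 FPKM in WT libraries. All KO and all HET libraries lay above all WT libraries, and the KO and HET libraries overlapped each other. The difference KO minus WT on the log2(FPKM + 1) scale was 1.28 ± 0.27 (SE), with a limma adjusted p of 0.0368 (Benjamini-Hochberg) over the 10877 genes tested. HET minus WT was 0.77 ± 0.27 and did not pass the threshold of 0.05 (adjusted p = 0.128), and KO minus HET was 0.51 ± 0.27 (adjusted p = 0.489). The KO call was lost without KO 2 (adjusted p = 0.0628), KO 3 (0.177), HET 2 (0.0680), WT 2 (0.0798) or WT 3 (0.117), and its log2 difference stayed between 1.06 and 1.56 in these and the other refits without 1 library. It was also lost with no filter on low values (0.0776).

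Of the 7 members that passed the filter of at least 1 FPKM in at least 3 libraries, Cxcl2 was the 1 called in KO against WT cells, beside 2.99% of all tested genes called in either direction and 1.36% called higher. Cxcl10 and Ccl7 did not pass the filter. Groups did not overlap, with KO above WT, for 2 of the 7 (Cxcl2 and Ccl2), beside 13.8% of all tested genes, and for none with KO below WT, beside 9.09%. The median log2 difference of the 7 was 0.37, beside 0.04 over all tested genes. Of the 325 genes called, 148 were higher and 177 lower in KO cells, which became 120 and 222 with quantile normalization and 121 and 223 with median-ratio size factors.

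Fos, an immediate early gene that a stimulus or the handling of cells switches on fast, was also high in KO and HET libraries. It was chosen after its values were seen, and it was at 390.0 ± 38.1 FPKM in KO cells, 269 ± 38.1 FPKM in HET cells and 83.5 ± 11.1 FPKM in WT cells (SD, n = 3), with limma adjusted p = 1.83e-06 for KO against WT and 2.45e-05 for HET against WT. Whether the time or handling of the cells had a part in the level of Cxcl2 was not tested.

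Ccl2, the main monocyte attractant, was highest in HET cells in vitro. It was at 3.73, 2.13 and 2.59 FPKM in KO libraries, at 4.56, 5.33 and 7.77 FPKM in HET libraries and at 1.18, 1.33 and 1.89 FPKM in WT libraries. The 3 groups did not overlap, with HET above KO and KO above WT. HET minus WT was 1.47 ± 0.19 on the log2(FPKM + 1) scale (SE, limma adjusted p = 0.00134), and this call held when any library was left out (adjusted p 0.000927 to 0.0102). KO minus HET was -0.85 ± 0.19 (limma adjusted p = 0.0451). That second call was lost without KO 2 (0.134), KO 3 (0.165), HET 1 (0.0513), HET 2 (0.123), HET 3 (0.202) or WT 2 (0.0731), and with a pseudocount of 0.1 (0.0605) or with no filter on low values (0.117). KO minus WT was 0.62 ± 0.19 and did not pass (adjusted p = 0.104). Ccl7, the neighbouring gene of a related monocyte attractant, was too low for the test, at 0.26, 0.156 and 0.22 FPKM in KO libraries, 0.0359, 0.219 and 0.204 FPKM in HET libraries and 0, 0.0704 and 0 FPKM in WT libraries. With no filter on low values its limma adjusted p was 0.127 for KO against WT, 0.234 for HET against WT and 0.771 for KO against HET.

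Il1b was also highest in HET cells in vitro, but no comparison passed the threshold. It was at 2.19, 2.29 and 2.69 FPKM in KO libraries, at 3.00, 2.97 and 4.35 FPKM in HET libraries and at 0.976, 2.19 and 2.20 FPKM in WT libraries. All HET libraries lay above all KO and all WT libraries, and the KO and WT libraries overlapped, with WT 1 apart from the others. HET minus WT was 0.69 ± 0.18 on the log2 scale (SE, limma adjusted p = 0.0608), KO minus HET was -0.38 ± 0.18 (adjusted p = 0.426) and KO minus WT was 0.31 ± 0.18 (adjusted p = 0.380).

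In HET against WT cells, Ccl2 was the 1 call among the 7 tested members, beside 3.68% of all tested genes called in either direction and 2.94% called higher. Of the 400 genes called, 320 were higher and 80 lower in HET cells, which became 262 and 173 with quantile normalization. Groups did not overlap, with HET above WT, for 3 of the 7 (Cxcl2, Ccl2 and Il1b), beside 17.2% of all tested genes, and for none with HET below WT, beside 11.9%. In KO against HET cells, Ccl2 was the 1 call, beside 1.99% of all tested genes called in either direction and 1.39% called lower. There, KO lay above HET without overlap for 3 of the 7 (Ccl3, Ccl4 and Ccl9), beside 11.3% of all tested genes, and below HET for 2 (Ccl2 and Il1b), beside 11.1%. The median log2 difference of the 7 members was 0.46 in HET against WT cells, beside 0.04 over all tested genes, and 0.18 in KO against HET cells, beside -0.00.

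**Figure D2:**
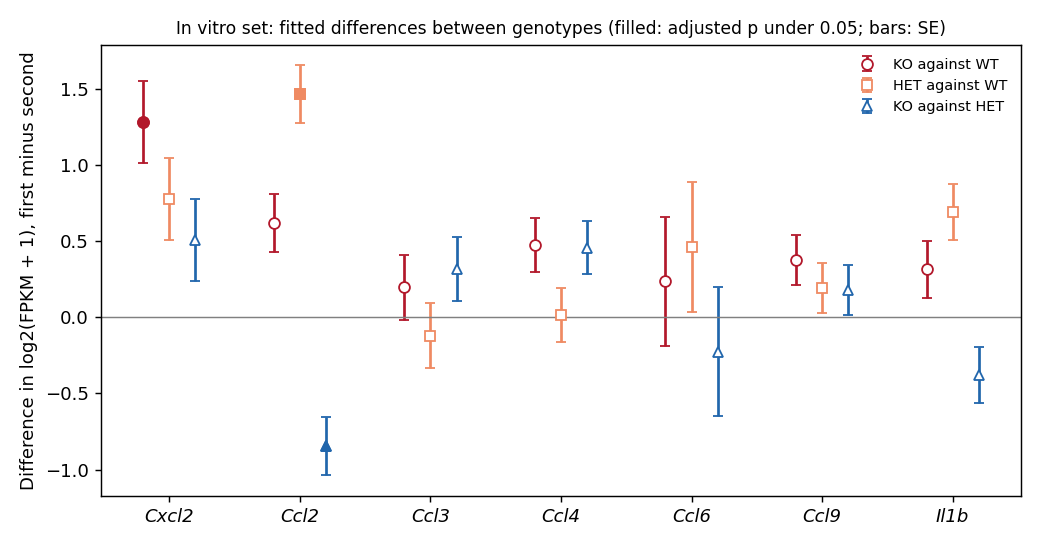
Fitted differences on the log2(FPKM + 1) scale between genotypes in the in vitro set for the 7 members tested, with SE as bars and filled symbols for an adjusted p under 0.05. The filled symbols are Cxcl2 in KO against WT (1.28), Ccl2 in HET against WT (1.47) and Ccl2 in KO against HET (-0.85).

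Ccl3, Ccl4, Ccl6 and Ccl9 did not pass the threshold in any in vitro comparison. Ccl3 was at 138, 155 and 158 FPKM in KO libraries, 100.2, 127 and 136 FPKM in HET libraries and 102, 109.7 and 198 FPKM in WT libraries. The WT range held all KO libraries and all but the lowest HET library. Ccl4 was at 6.91, 7.32 and 10.6 FPKM in KO libraries, 5.48, 5.05 and 6.47 FPKM in HET libraries and 4.31, 5.47 and 7.26 FPKM in WT libraries, so its KO libraries lay above its HET libraries and overlapped its WT libraries. KO minus WT was 0.20 ± 0.21 for Ccl3 (SE, limma adjusted p = 0.657) and 0.47 ± 0.18 for Ccl4 (adjusted p = 0.165). HET minus WT was -0.12 ± 0.21 for Ccl3 (adjusted p = 0.771) and 0.02 ± 0.18 for Ccl4 (adjusted p = 0.967). KO minus HET was 0.32 ± 0.21 for Ccl3 (adjusted p = 0.614) and 0.46 ± 0.18 for Ccl4 (adjusted p = 0.266).

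Ccl6 and Ccl9, a neighbouring pair of rodent chemokine genes, were most spread in WT cells. Ccl6 was at 257, 176 and 302 FPKM in KO libraries, 256, 283 and 301 FPKM in HET libraries and 87.7, 267 and 356 FPKM in WT libraries. Ccl9 was at 222, 221 and 254 FPKM in KO libraries, 191, 219 and 205 FPKM in HET libraries and 129, 191 and 231 FPKM in WT libraries. WT 1 was the lowest library for both genes, and all genotypes overlapped except for KO above HET in Ccl9. KO minus WT was 0.24 ± 0.43 for Ccl6 (SE, limma adjusted p = 0.808) and 0.37 ± 0.16 for Ccl9 (adjusted p = 0.239). Without WT 1, KO minus WT for Ccl6 turned to -0.36 and HET minus WT turned to -0.14 for Ccl6 and -0.04 for Ccl9, none of them called. The summed FPKM of 6 mast cell and basophil markers was 1610 to 2558 in KO libraries, 2509 to 2744 in HET libraries and 1288 to 3382 in WT libraries, with WT 1 again the lowest. The part of these cells in the level of Ccl6 and Ccl9 was not tested.

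Cxcl10, which interferons induce, was at 0.244, 1.25 and 1.58 FPKM in KO libraries, 0.861, 0.292 and 0.326 FPKM in HET libraries and 0.591, 0.665 and 0.374 FPKM in WT libraries. The KO libraries spread on both sides of the other groups, and the gene did not pass the filter. With no filter on low values its limma adjusted p was 0.617 for KO against WT, 0.939 for HET against WT and 0.660 for KO against HET.

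Across the 9 in vitro libraries, the members varied in different combinations. Pearson's r of log2(FPKM + 1) was 0.843 for Ccl2 and Il1b, 0.831 for Ccl6 and Ccl9, 0.795 for Ccl4 and Ccl9, 0.758 for Ccl6 and Il1b, and 0.736 for Ccl3 and Ccl4. It was 0.579 for Cxcl2 and Ccl4, 0.406 for Cxcl2 and Ccl2, 0.0255 for Cxcl2 and Ccl6, and -0.0151 for Ccl2 and Ccl3. These 9 points share their genotype groups and their sequencing, so the values are a description.

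Patterns like those of the members over the 9 libraries were sought among other tested genes, without predicted genes, pseudogenes and antigen receptor segments. The genes named were picked for the highest r, so their r values are a description. The pattern most like that of Ccl2 was that of Myo1f (r = 0.973), a myosin of leukocytes, followed by Pbxip1 (0.965) and Wfdc17 (0.961), a secreted protein of myeloid cells. Wfdc17 was at 13.8 ± 0.986 FPKM in KO cells, 32.9 ± 4.36 in HET cells and 9.71 ± 1.29 in WT cells (SD, n = 3). For Cxcl2 the closest were Itgb5 (0.948), an integrin chain, Hcar2 (0.938), the receptor for hydroxybutyrate and niacin, and Gadd45b (0.927), a stress-induced gene at 32.7 ± 2.65 FPKM in KO cells, 27.2 ± 1.84 in HET cells and 23 ± 0.75 in WT cells. For Il1b they were Zc3h12a (0.966), which encodes the RNase regnase that degrades cytokine transcripts, Clec4b2 (0.962) and the granule gene Camp (0.956). For Ccl4 they were Traf3ip2 (0.915), an adaptor of interleukin-17 receptors, Slc22a18 (0.914) and Btbd19 (0.902).

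Of the genes of chemokine receptors, 5 of 23 passed the filter in vitro. In KO against WT cells 1 rose and none fell, in HET against WT cells 3 rose and none fell, and in KO against HET cells none rose and 1 fell, with median log2 differences of 0.19, 0.73 and -0.38. Over all tested genes, 2.99%, 3.68% and 1.99% were called in either direction, with medians of 0.04, 0.04 and -0.00. In HET against WT cells, 320 of the 400 genes called were higher. These values also apply beside the in vitro counts of the pathway and cell type lists below. The gene of the Ccl2 receptor, Ccr2, was at 27.9, 23.1 and 27.2 FPKM in KO libraries, 31.7, 33.9 and 36.6 FPKM in HET libraries and 13.6, 11.9 and 11.3 FPKM in WT libraries. The 3 groups did not overlap, and Ccr2 rose by 1.03 in KO cells (limma adjusted p = 0.000439) and by 1.40 in HET cells (adjusted p = 2.45e-05). Ccr1, the receptor of Ccl3, Ccl6 and Ccl9, was at 11.3 ± 1.28 FPKM in KO cells, 18.0 ± 1.83 in HET cells and 9.75 ± 1.30 in WT cells (SD, n = 3). It rose in HET against WT cells (0.83, adjusted p = 0.00261) and fell in KO against HET cells (-0.63, adjusted p = 0.0158, lost without HET 2 at 0.0921 or HET 3 at 0.104). Cxcr2, the receptor of Cxcl2 and a neutrophil marker, was at 15.8 ± 2.5 FPKM in HET cells and 9.10 ± 1.37 in WT cells (0.73, adjusted p = 0.0242, lost without HET 2 at 0.103, HET 3 at 0.111 or WT 3 at 0.0582, and with no filter on low values at 0.0711).

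Of 25 interleukin-1 pathway genes, 19 passed the filter in vitro. None was called in KO against WT cells, 3 rose and none fell in HET against WT cells, and 1 fell and none rose in KO against HET cells, with median log2 differences of 0.10, 0.13 and -0.01. The genes that rose in HET cells were the inflammasome sensor Nlrp3 (6.52 ± 0.912 FPKM in HET and 3.27 ± 0.591 in WT cells, 0.82, limma adjusted p = 0.00969), the receptor antagonist Il1rn (1.94 ± 0.492 and 0.687 ± 0.272 FPKM in HET and WT cells, 0.80, adjusted p = 0.0156) and the decoy receptor Il1r2 (13.6 ± 1.48 and 9.21 ± 1.70 FPKM in HET and WT cells, 0.52, adjusted p = 0.0396). Il1rn and Il1r2 hold interleukin-1 signalling back, whereas Nlrp3 is part of the machinery that matures Il1b. Il1r2 fell in KO against HET cells (7.14 ± 0.365 and 13.6 ± 1.48 FPKM, -0.84, adjusted p = 0.00323). The calls of Nlrp3 and Il1rn were lost without HET 2 (0.0501 for both) or HET 3 (0.0631 and 0.0804). The call of Il1r2 in HET against WT cells was lost without KO 1 (0.0587), KO 3 (0.0655), HET 1 (0.0714), HET 2 (0.108), HET 3 (0.153), WT 1 (0.0565) or WT 2 (0.118). It was also lost with quantile normalization (0.0760), median-ratio size factors (0.0602), no filter on low values (0.0870) or only the compared groups in the fit (0.0729).

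Of 25 NF-kappaB and inflammatory cytokine genes, 19 passed the filter in vitro, and both genes called in KO against WT cells are known as brakes. Socs3, an inhibitor of cytokine receptor signalling, was at 34.5, 32.1 and 34 FPKM in KO libraries, 28.0, 35.3 and 40.7 FPKM in HET libraries and 11.1, 16.6 and 19.8 FPKM in WT libraries. It rose by 1.07 in KO cells (limma adjusted p = 0.0104, lost without KO 1 at 0.0571 or KO 3 at 0.0549) and by 1.10 in HET cells (adjusted p = 0.00654). Zfp36, whose protein tristetraprolin destabilises cytokine transcripts, was at 163 ± 25.9 FPKM in KO cells and 88.1 ± 15.8 in WT cells (SD, n = 3) and rose by 0.88 (adjusted p = 0.00902). In all, 2 rose in KO against WT cells, 1 in HET against WT cells and none in KO against HET cells, and none fell, with medians of 0.07, 0.10 and -0.08. Of 25 interferon response genes 18 passed the filter and none was called in KO against WT, HET against WT or KO against HET cells (medians 0.19, 0.18 and 0.03). Of 26 other chemokine genes 6 passed the filter. The platelet chemokine Pf4 fell in KO against WT cells (71.4 ± 3.60 and 97.8 ± 7.67 FPKM, log2 difference -0.45, adjusted p = 0.0451), a call lost without any of KO 1 to KO 3, HET 3, WT 1 or WT 2 (adjusted p up to 0.173), and with quantile normalization (0.0680), rescaling to TPM (0.0867) or no filter on low values (0.104). No other gene of that list was called in the 3 in vitro comparisons (medians -0.13, -0.20 and -0.04).

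**Figure D3:**
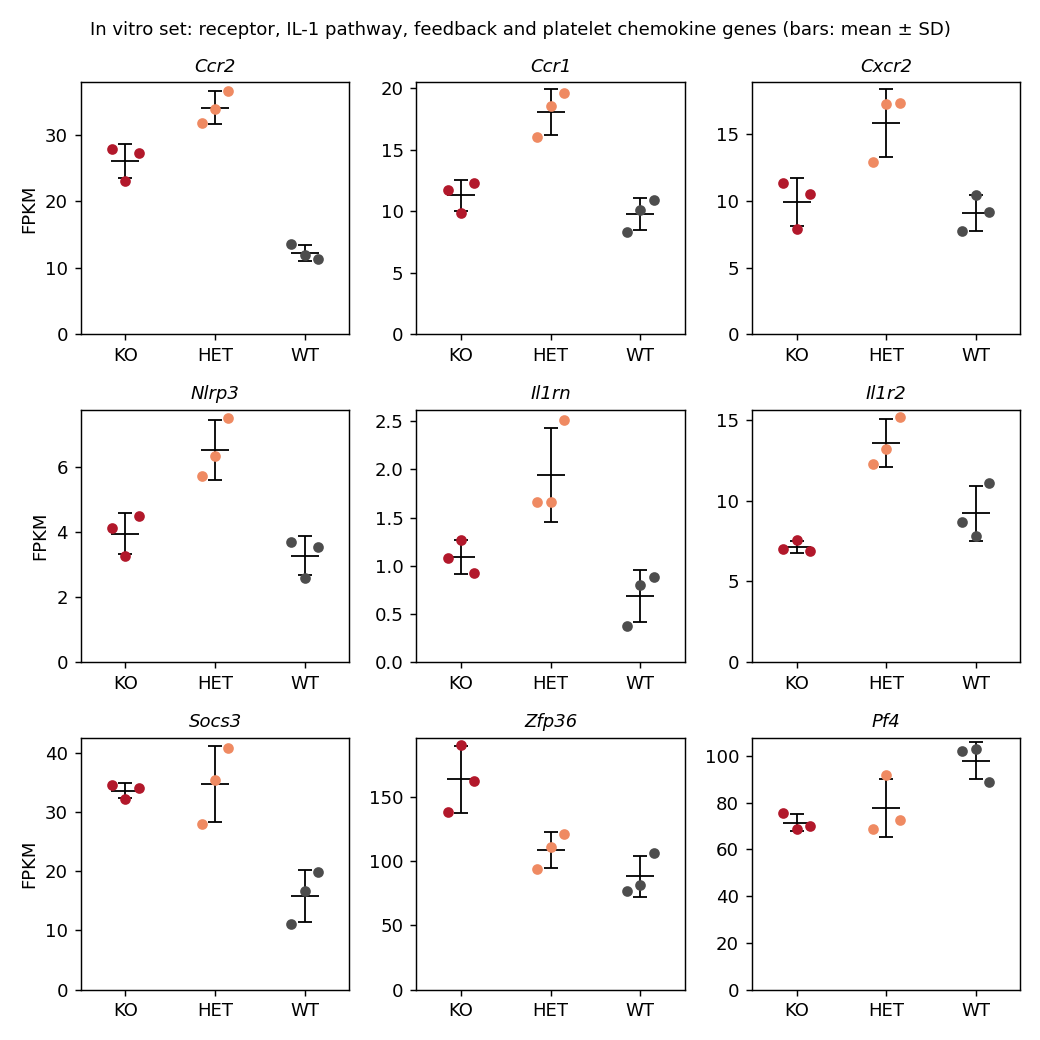
FPKM (linear axes) of the 9 called receptor, interleukin-1 pathway, feedback and platelet chemokine genes in the in vitro set, with KO, HET and WT from left to right, 1 point per library and bars for mean ± SD (n = 3). Ccr2 separates all 3 genotypes, whereas Nlrp3, Il1rn and Il1r2 are highest in HET libraries and Socs3 is high in both KO and HET libraries.

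Several markers of monocytes and neutrophils were higher in HET than in WT cells in vitro, as were Ccl2 and, without passing the threshold, Il1b. In bulk RNA, more cells of a type and more RNA per cell cannot be told apart. Of 15 monocyte and macrophage markers 10 passed the filter, and 6 rose and none fell in HET against WT cells (median 1.29), 5 fell and none rose in KO against HET cells (median -0.57), and 1 rose and none fell in KO against WT cells (median 0.34). Their summed level was 655.3 to 998.5 FPKM in KO libraries, 996 to 1195 in HET libraries and 509.6 to 713.9 in WT libraries. KO 2, at 998.5 FPKM, lay above HET 1 at 996 FPKM, and had less Ccl2 (2.13 against 4.56 FPKM) and Il1b (2.29 against 3.00 FPKM). Lyz2 and Ly6c2 carried most of the marker sum, at 505 and 388.4 FPKM in KO 2 and 591 and 281.2 FPKM in HET 1. Ctss (3.50 against 16.4 FPKM) and Trem2 (0.979 against 3.71 FPKM) were lower in KO 2 than in HET 1. The macrophage receptor Trem2 was at 0.852 ± 0.250 FPKM in KO cells, 3.80 ± 0.315 in HET cells and 0.763 ± 0.219 in WT cells, with a log2 difference of 1.45 for HET against WT (limma adjusted p = 0.000120) and -1.38 for KO against HET (adjusted p = 0.000205). The protease gene Ctss fell by 1.90 in KO against HET cells (4.34 ± 1.09 and 18.8 ± 2.10 FPKM, adjusted p = 0.000205). The receptor gene Ccr2 is counted both here and among the receptors, as the 1 marker that rose in KO cells and 1 of the 6 in HET cells. Of the macrophage markers in this list, C1qa was listed at 0 in 8 of 9 libraries and C1qb was at 0.115 FPKM or less. Mrc1 was at 0.0756 FPKM or less, whereas Adgre1 (4.73 to 9.17 FPKM) and Cd68 (26.4 to 45.4 FPKM) were present in every library.

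Of 12 neutrophil markers 11 passed the filter in vitro, and 4 rose and none fell in HET against WT cells (median 1.15), 2 fell and none rose in KO against HET cells (median -0.93) and none was called in KO against WT cells (median 0.24). Their summed level was 1647 to 2536 FPKM in KO libraries, 2368 to 4533 in HET libraries and 695.5 to 1901 in WT libraries, lowest in WT 1, which also had the least Il1b. KO 2 (2536 FPKM) again lay above HET 1 (2368 FPKM). S100a8, S100a9 and Ngp carried most of this sum, at 750.7, 951.9 and 546.1 FPKM in KO 2. In HET 1 they were at 713.8, 912 and 400.4 FPKM. Mmp8 (5.96 against 45.5 FPKM) and Ltf (2.17 against 12.1 FPKM) were lower in KO 2 than in HET 1. The granule protease gene Mmp8 was at 9.32 ± 3.18 FPKM in KO cells, 48.6 ± 3.45 in HET cells and 8.78 ± 0.700 in WT cells, with log2 differences of 2.34 for HET against WT (limma adjusted p = 4.64e-05) and -2.31 for KO against HET (adjusted p = 6.22e-05). Ltf, another granule gene, was at 3.74 ± 1.37, 15.3 ± 2.77 and 3.25 ± 1.92 FPKM in KO, HET and WT cells (SD, n = 3), and its call in HET against WT cells (2.05, adjusted p = 0.0164) was lost without HET 2 (0.0767) or HET 3 (0.0706). The 6 eosinophil markers summed to 1198 to 1629 FPKM in KO libraries, 1404 to 2707 in HET libraries and 2172 to 2817 in WT libraries. Of these markers 4 passed the filter and none was called (median -0.76 in KO against WT cells). The part of a change in cell makeup in the levels of Cxcl2, Ccl2 and Il1b was not tested. In the other cell type lists, the progenitor receptor Flt3 rose in KO cells (2.73 ± 0.065 FPKM in KO, 1.48 ± 0.314 in HET and 1.39 ± 0.224 in WT cells). Its limma adjusted p was 0.0168 against WT and 0.0232 against HET, up to 0.0754 and 0.0946 without 1 library. Flt3 was the 1 called of 6 progenitor genes in both comparisons (medians 0.14 and 0.19). Elane (-0.39) and Mpo (-0.22) were lower in KO against WT cells, not called. The hemoglobin gene Hba-a1 fell in HET against WT cells (26.6 ± 4.5 and 40.3 ± 1.23 FPKM, adjusted p = 0.00988, up to 0.0631 without 1 library). It was the 1 called of 7 tested erythroid genes (median -0.13), with Klf1 at 0.22, not called. Pdgfrb, the 1 stromal gene that passed the filter, fell in KO against HET cells (1.21 ± 0.0852 and 2.28 ± 0.127 FPKM, adjusted p = 0.0358, up to 0.163 without 1 library and 0.0660 with no filter).

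**Figure D4:**
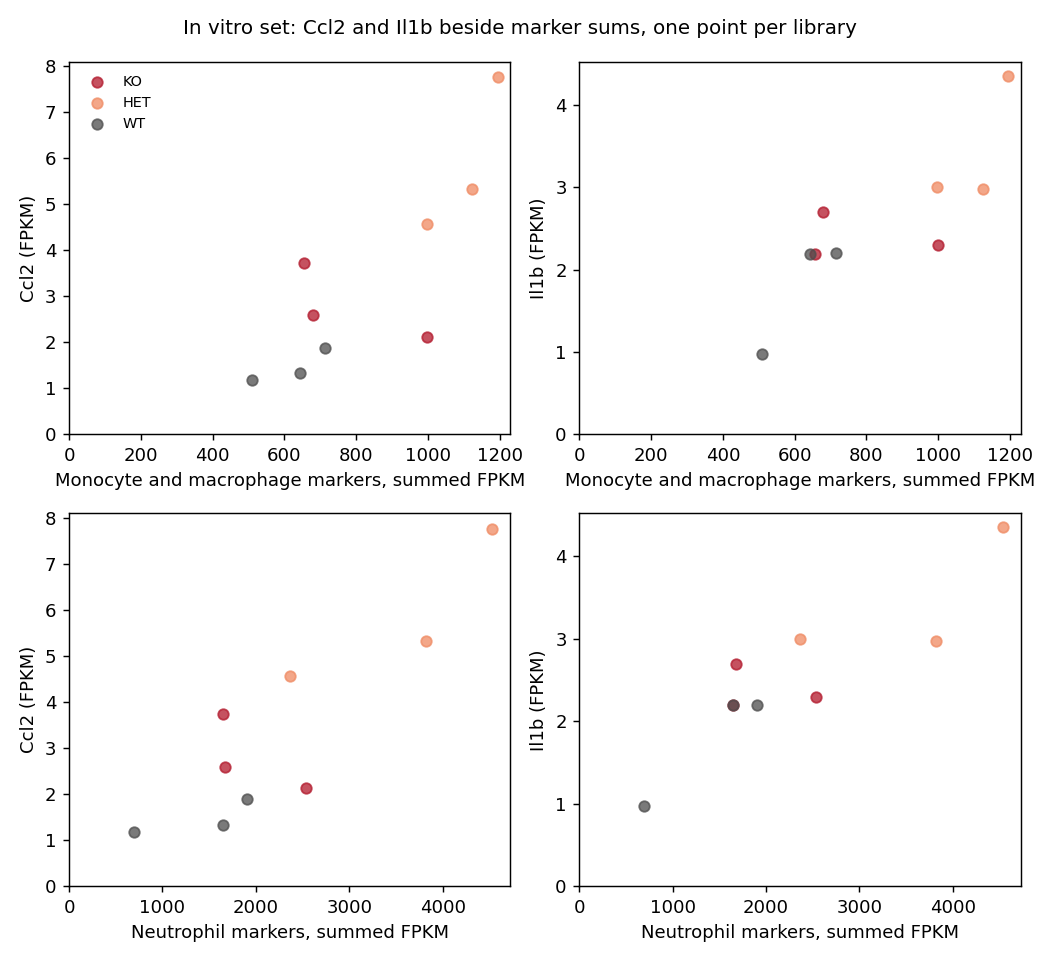
Ccl2 and Il1b (FPKM, vertical axes) against the summed FPKM of monocyte and macrophage markers and of neutrophil markers in the in vitro set, 1 point per library (KO, HET and WT by colour), all axes linear from 0. The HET libraries have the highest Ccl2 (4.56 to 7.77 FPKM) and Il1b (2.97 to 4.35 FPKM) and marker sums of 996 to 1195 FPKM for monocytes and 2368 to 4533 FPKM for neutrophils. The marker sums of KO 2 (998.5 and 2536 FPKM) lie above those of HET 1. These sums are carried mostly by Lyz2, Ly6c2, S100a8, S100a9 and Ngp, whereas Ctss, Trem2, Mmp8 and Ltf were lower in KO 2 than in HET 1.

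Genes of the sex chromosomes also differed between the in vitro groups. The Y gene Eif2s3y was at 6.05 ± 0.192 FPKM in KO cells, 9.97 ± 0.523 in HET cells and 4.35 ± 0.280 in WT cells (SD, n = 3, limma adjusted p = 9.2e-05 for HET against WT), and Xist, the X inactivation RNA, was at 36.1 ± 9.65, 15.4 ± 3.00 and 42.0 ± 9.44 FPKM in KO, HET and WT cells (adjusted p = 0.00825 for HET against WT). Every in vitro library held both Xist and Y transcripts. In sorted marrow, Xist was at 5.01 to 13.8 FPKM in KO libraries, 31.4 and 65.1 in HET libraries and 37.6 to 57.2 in WT libraries, and Eif2s3y was at 1.10 to 5.85 FPKM in KO libraries and listed at 0 in both HET and all WT libraries. Of the Y genes Ddx3y, Eif2s3y, Kdm5d and Uty, all were listed at 0 in both HET and all WT marrow libraries except Ddx3y in WT 3 (3.90 FPKM). In KO against WT cells in vitro, 3 of 5 sex-linked genes were called higher, Ddx3y (limma adjusted p = 0.0139), Kdm5d (0.0204) and Eif2s3y (0.0334). Without 1 library, Ddx3y ran up to 0.0754 and Kdm5d up to 0.110. For these 3 genes the in vitro groups did not overlap, with HET above KO and KO above WT. Donor sex and genotype cannot be told apart in the comparisons of KO marrow cells. They cannot be told apart in the in vitro comparisons either, and the part of donor sex there was not tested.

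In sorted marrow, none of the 7 members that passed the filter there was called in any comparison. The most abundant was Ccl3, at 546, 751 and 804 FPKM in KO libraries, 587 and 595 FPKM in HET libraries and 775, 686 and 789 FPKM in WT libraries. Its KO and WT libraries overlapped, and both HET libraries lay below all WT libraries. Ccl4 was at 310.0, 393 and 386 FPKM in KO libraries, was listed at 0 in HET 1 and at 269.7 FPKM in HET 3, and was at 398, 434 and 897 FPKM in WT libraries, so its 3 groups did not overlap. The fitted log2 difference of Ccl4 was -5.03 ± 1.63 for HET minus WT (SE, limma adjusted p = 0.237) and 4.46 ± 1.63 for KO minus HET (adjusted p = 0.314), and HET 1 decided both. Without HET 1 they were -0.99 (adjusted p = 0.552) and 0.42 (0.716). Without HET 3 they were -9.07 (7.09e-05) and 8.50 (6.9e-05), but the HET group is then the 1 library listed at 0, with its spread assumed from the other groups. These levels lie above those in vitro, but the 2 tables may have been scaled separately and no test was made across them of a level.

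Cxcl2 was at 134, 217 and 191 FPKM in KO libraries, 68.6 and 81.1 FPKM in HET libraries and 540.0, 113 and 176 FPKM in WT libraries of sorted marrow. Both HET libraries lay below all other libraries, whereas WT 1 lay far above the other WT libraries. KO minus WT was -0.32 ± 0.65 on the log2 scale (SE, limma adjusted p = 0.999), and it turned to 0.33 without WT 1. HET minus WT was -1.55 ± 0.73 (adjusted p = 0.413) and KO minus HET was 1.24 ± 0.73 (adjusted p = 0.527).

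Ccl2 was split within the WT group of sorted marrow. It was at 56.1, 101 and 145 FPKM in KO libraries, at 0.627 and 0 FPKM in HET libraries and at 507, 0.048 and 490.0 FPKM in WT libraries. WT 2 stood with the HET libraries, and the KO libraries lay above both HET libraries and between the WT values. HET minus WT was -5.65 ± 2.28 (limma adjusted p = 0.335), KO minus HET was 6.21 ± 2.28 (adjusted p = 0.314) and KO minus WT was 0.56 ± 2.04 (adjusted p = 0.999), turning to -2.40 without WT 2. Fitted values of this size depend on the pseudocount, since the low libraries are at or near 0.

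The other members were as uneven. Ccl6 was at 14.9, 119 and 157 FPKM in KO libraries, 454 and 494 FPKM in HET libraries and 266, 64.6 and 167 FPKM in WT libraries, highest in both HET libraries (HET minus WT 1.73, adjusted p = 0.483, and KO minus HET -2.82, adjusted p = 0.292). Ccl9 was at 0.061, 74.6 and 106 FPKM in KO libraries, 0 and 22.7 FPKM in HET libraries and 189.6, 38.3 and 282 FPKM in WT libraries. Il1b was at 29.7, 19.9 and 8.36 FPKM in KO libraries, 66.4 and 0 FPKM in HET libraries and 42.0, 0.0205 and 0 FPKM in WT libraries. The KO libraries of Il1b were the least spread, and its HET and WT libraries ranged from 0 or near it to above every KO library. Cxcl10 was above 0 only in KO 1 (61.9 FPKM) and KO 3 (16.6 FPKM) of the 8 libraries, and Ccl7 only in WT 3 (34.7 FPKM). Listed at 0 were 1, 2 and 1 members in KO libraries, 4 in each HET library and 2 in each WT library.

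**Figure D5:**
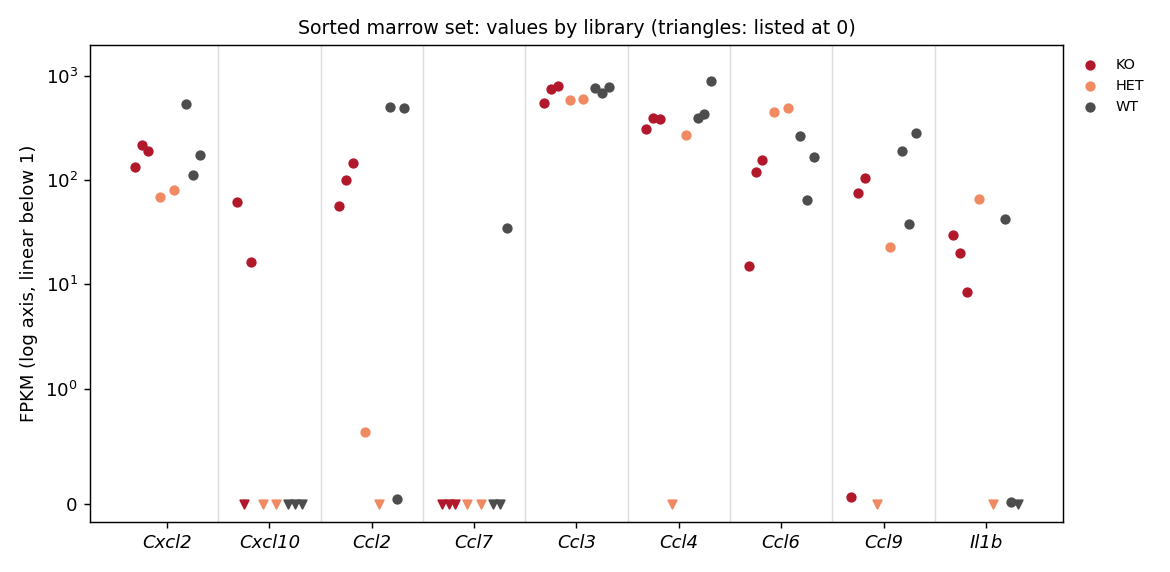
FPKM (log axis, linear below 1) of the 9 genes in the sorted marrow set, with KO, HET and WT side by side for each gene, 1 point per library and triangles for values listed at 0. Ccl3 stays between 546 and 804 FPKM in all 8 libraries, whereas Ccl2 runs from 0 to 507 FPKM.

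In KO against WT sorted marrow cells, limma called 0% of the 7246 tested genes at an adjusted p under 0.05 and 5.11% at an unadjusted p under 0.05, of which none was a member. Groups did not overlap for 1 member with KO below WT (Ccl4), beside 8.14% of all tested genes, and for none with KO above WT, beside 4.11%. In HET against WT cells, 0.262% of all tested genes were called. Unadjusted p-values were under 0.05 for 3 members (Ccl2, Ccl4 and Ccl9), beside 12.4% of all tested genes, HET lay above WT without overlap for 1 (Ccl6), beside 5.8%, and below WT for 4 (Cxcl2, Ccl3, Ccl4 and Ccl9), beside 24.3%. The median log2 difference of the 7 was -1.55, beside -0.99 over all tested genes, so the members' differences are to be read against a downward shift of the whole table in HET cells. That shift of all tested genes ran from -1.23 to -0.03 under the other scalings, and in KO against HET cells it ran from 0.01 to 0.92. In KO against HET cells, 0.166% of all tested genes were called. Unadjusted p-values were under 0.05 for 3 members (Ccl2, Ccl4 and Ccl6), beside 11.3%, KO lay above HET without overlap for 3 (Cxcl2, Ccl2 and Ccl4), beside 20.7%, and below HET for 1 (Ccl6), beside 7.27%. The median of the 7 was 1.24, beside 0.83 over all tested genes, and in KO against WT cells it was -0.32, beside -0.18.

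None of the tested genes of the receptor (6), interleukin-1 (15), NF-kappaB (14) and interferon (13) lists was called in sorted marrow, and none of the other chemokine genes passed the filter there. The monocyte and macrophage markers summed to 10860 to 19700 FPKM in KO libraries, 13740 and 14550 in HET libraries and 11540 to 16240 in WT libraries. The neutrophil markers summed to 130300 to 206600 FPKM in KO libraries, 125400 and 126400 in HET libraries, and 48370, 38590 and 1248 FPKM in WT 1, WT 2 and WT 3, with none of them called by the test. The granule gene S100a8 alone took 12.6 to 19.0% of all FPKM in KO libraries, 13.1 and 13.6% in HET libraries and 5.16 and 4.52% in WT 1 and WT 2, and in WT 3 another gene led. Its part in the members' levels was not tested.

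A limma fit over both tables, with 6915 genes, tested each genotype contrast in vitro minus the same contrast in sorted marrow. The median of this difference over all tested genes was 0.22 in KO against WT cells. It was 1.08 in HET against WT cells (0.09 to 1.39 under the other scalings) and -0.88 in KO against HET cells (-1.02 to -0.05). Of the genes called, 404 of 432 were higher in HET against WT cells and 336 of 390 were lower in KO against HET cells. No member passed the threshold in the KO against WT contrast, where 0.738% of all tested genes did, in the HET against WT contrast, where 6.25% did, or in the KO against HET contrast, where 5.64% did. The smallest adjusted p was that of Cxcl2 in HET against WT cells, where the log2 difference of 0.77 in vitro stood against -1.55 in sorted marrow (2.33 ± 0.73, SE, adjusted p = 0.0776). For Cxcl2 in KO against WT cells it was 1.60 ± 0.69 (adjusted p = 0.555). For Ccl2 it was 7.11 ± 2.47 in HET against WT cells (adjusted p = 0.112) and -7.06 ± 2.47 in KO against HET cells (adjusted p = 0.126). Over the 17 refits without 1 library, the adjusted p ran from 0.0199 to 0.193 for Cxcl2 in HET against WT cells, from 1.21e-05 to 0.215 for Ccl2 in HET against WT cells and from 9.51e-05 to 0.239 for Ccl2 in KO against HET cells. The lowest of each came without WT 2 of sorted marrow, the WT library with Ccl2 near 0. WT 2 is in neither group of the KO against HET contrast, where leaving it out changed the pooled spread but not the difference. For Ccl4 the set difference in HET against WT cells was 1.01 without HET 1 (adjusted p = 0.340) and 9.09 without HET 3 (1.05e-06) of sorted marrow, and in KO against HET cells it was 0.0389 (0.971) and -8.04 (3.27e-06). Each of these refits leaves 1 HET marrow library, with its spread assumed from the other groups, and in HET 1 both Ccl4 and Ccl9 were listed at 0. Ccl9 passed in HET against WT cells without HET 3 (0.0413), with the same limit, and without KO 1 of sorted marrow (0.0350), which is in neither group of that contrast.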

How the data were processed

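Bulk RNA-seq values of 17 libraries were used. Replicate 2 of the HET sorted marrow group was not used here. Per the labels' protocols, RNA was isolated with TRIzol and prepared with the VAHTS Universal V6 library kit. The submitters' processing notes name mm10 as the build. The sources used here give no aligner, counter, annotation or strand setting. The values are FPKM as the authors deposited them, 1 table per set. FPKM hold no counts, so no counting interval is given. In vitro depth was estimated from the steps between low values, 81.7 to 88.2% of which lay within 0.1 of a whole step.

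log2(FPKM + 1) was tested with limma 3.58.1 (R 4.3.3, statmod 1.5.0, data.table at 1.17.8) with an intensity trend and robust moderation, 1 mean per genotype, a shared fit per table and Benjamini-Hochberg adjustment over all tested genes at 0.05. The fit was tested on simulated data. A log2 difference on this scale understates the change of low genes. A gene was tested where 3 or more libraries of its table reached 1 FPKM. The text names all 9 members, up to 4 called genes with the smallest p per pathway list and comparison, up to 2 per cell type list, and the 3 genes most like a member for 4 members. Fos was added after its values were seen. Members, lists and rule were chosen with earlier results of these data known.

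Other settings tried were TPM, quantile and median-ratio scaling, a filter at 5 FPKM or at any value above 0 (3 libraries each), a pseudocount of 0.1, fits of 2 genotypes alone, a replicate block, and each library left out in turn. The KO against HET difference between the sets was added after the data were seen. Sequences, scripts and figures used Python 3.11.15 with numpy 2.4.6, pandas 2.3.3 and matplotlib 3.10.9.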

Additional observations from a re-analysis of the deposited data

Results flagged for a closer look

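Cxcl2 lay in opposite directions in the 2 sets in HET against WT cells, with every HET library above every WT library in vitro and both HET libraries below every WT library in sorted marrow. HET lay above WT without overlap for 17.2% of tested genes in vitro and below WT for 24.3% in sorted marrow. The difference between the sets was 2.33 on the log2 scale and did not pass the joint limma test (adjusted p = 0.0776, and 0.0199 to 0.193 over the 17 refits without 1 library, lowest without WT 2 of sorted marrow). Over all tested genes, the median difference between the sets in HET against WT cells was 1.08 (0.09 to 1.39 under the other scalings). Ccl2 lay in opposite directions in KO against HET cells, with every KO library below every HET library in vitro and above both HET libraries in sorted marrow. That difference was -7.06 on the log2 scale and did not pass the test either (adjusted p = 0.126, and 9.51e-05 to 0.239 over those refits). The lowest came without WT 2 of sorted marrow, which is in neither group and changes only the pooled spread. Over all tested genes, the median difference between the sets in KO against HET cells was -0.88 (-1.02 to -0.05 under the other scalings). KO lay below HET without overlap for 11.1% of tested genes in vitro and above HET for 20.7% in sorted marrow.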

How the results depend on the processing

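Of the alternatives for the members' differences, 433 values under another setting kept their direction and their side of the threshold, 9 reversed, 4 lost and 2 gained a call. Without 1 library, 668 kept both, 26 reversed, 11 lost and 9 gained a call. The 1 called member in KO against WT cells in vitro (Cxcl2) became 0 with no filter on low values and was 0 to 1 without a library. The 1 called member in HET against WT cells in vitro (Ccl2) became 0 with a filter at FPKM of 5, which removes Ccl2, stayed at 1 without any library, and became 2 with the replicate block, which added Il1b (adjusted p = 0.0442). The 1 called member in KO against HET cells in vitro (Ccl2) became 0 with a pseudocount of 0.1, with no filter, with a filter at FPKM of 5 and with the replicate block (adjusted p = 0.0568), and was 0 to 1 without a library. Across genotypes in vitro, correlations of deviations from the group mean ran from -0.303 to 0.181 for libraries with the same replicate number. For libraries with different numbers they ran from -0.331 to 0.374. The labels do not say what the numbers mean, and with 3 libraries per group this check cannot exclude a shared litter or day. The block also took the calls of Pf4 in KO against WT (0.0673), Il1r2 in HET against WT (0.0543) and, in KO against HET cells, Flt3 (0.0645) and Pdgfrb (0.0822). Against a count of 0 called members in sorted marrow, leaving out a library gave 0 to 1 in HET against WT and in KO against HET cells, where without HET 3 the single HET library with Ccl4 listed at 0 is left and is assumed to vary like the other groups (adjusted p = 7.09e-05 and 6.9e-05). The count of 0 for the difference between the sets in HET against WT became 1 with rescaling to TPM (Cxcl2 at 2.57, adjusted p = 0.0428) and was 0 to 2 without a library, and in KO against HET it was 0 to 1. The genes called in vitro without a library numbered 66 to 475 in KO against WT, 84 to 628 in HET against WT and 73 to 344 in KO against HET cells, and 152 to 344, 234 to 435 and 136 to 323 in the other settings.

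Directions of members that were not called reversed in these cases. With quantile normalization and median-ratio size factors, Ccl3 in KO against WT sorted marrow was 0.14 and 0.11, Ccl4 in HET against WT in vitro -0.0766 and -0.0207, the set difference of Ccl2 in KO against WT -0.0803 and -0.10 (-0.61 with a pseudocount of 0.1) and that of Ccl3 in KO against HET -0.13 and -0.13. Without a library, the ranges that crossed 0 in vitro were -0.36 to 0.64 for Ccl6 in KO against WT and, in HET against WT, -0.29 to 0.18 for Ccl3, -0.14 to 0.18 for Ccl4, -0.14 to 0.87 for Ccl6 and -0.0383 to 0.38 for Ccl9. In sorted marrow they were -0.80 to 0.33 for Cxcl2, -2.40 to 2.06 for Ccl2 and -0.23 to 0.0533 for Ccl3 in KO against WT, -1.82 to 4.25 for Il1b in HET against WT, and -0.21 to 4.35 for Ccl9 and -1.89 to 4.18 for Il1b in KO against HET. For set differences they were -1.44 to 3.02 for Ccl2 in KO against WT, -3.56 to 2.51 for Il1b in HET against WT, and -0.0768 to 0.20 for Ccl3, -8.04 to 0.0389 for Ccl4, -4.17 to 0.39 for Ccl9 and -4.56 to 1.51 for Il1b in KO against HET. The cause of these changes was not tested. Sorted marrow has 2 or 3 libraries per genotype, and its libraries correlated at only 0.427 to 0.621, which limits the precision there. Its depth was resolved for 5 of 8 libraries.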
